A study of Mus musculus with 24 samples.

Results

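N6-methyladenosine (m6A) peaks in the 3' untranslated regions (3' UTRs) of mouse spinal cord mRNA were described here, in sham-operated mice and after spared nerve injury. They were the rows of the 4 peak lists annotated as 3' UTR with a fold enrichment of m6A-enriched over input signal of 2 or more and a p no larger than 1e-05. These thresholds kept 51551 3' UTR peaks of 86821 peaks of any annotation that passed them, and of 145655 rows in all. The sham list held 12200 3' UTR peaks, the day 3 list 13533, the day 7 list 12264 and the day 14 list 13554. The values on either side of the thresholds were close: the lowest fold inside was 2 and the highest outside 1.99, and log10 p ran from -5 or -5.01 inside to -4.98 or -4.99 outside.

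m6A is a methyl group that a nuclear complex around Mettl3 and Mettl14 places on adenosines of mRNA as it is made. It lies mostly near stop codons and in 3' UTRs, where proteins with a YTH domain bind it and alter splicing, translation or decay of the message. In the nervous system it has been studied in synaptic mRNAs, axon growth and pain.

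In spared nerve injury the common peroneal and tibial branches of the sciatic nerve are ligated and cut while the sural branch is left, a model of neuropathic pain. The injured groups were spinal cord taken on days 3, 7 and 14 after that operation, and the sham group, in which the nerve was only exposed, was taken on day 3. Each of the 4 groups had 3 enriched and 3 input libraries, 24 in all, made from poly(A) RNA that was fragmented and pulled down with an m6A antibody. The sources used here do not give strain, sex, age, cord segment or side, or say if each library came from its own mouse, so p-values measure only the spread between libraries. Sham cord from days 7 and 14 was not analysed here, so injury and time cannot be told apart beyond day 3.

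Peaks came as 1 list per group, so no peak has a replicate and no difference between lists could be tested. RNA levels came as FPKM (fragments scaled to transcript length and library size) for the 12 input libraries, without read counts, so depth is unknown. Markers of neurons, oligodendrocytes, astrocytes and microglia and Hox genes of the cord were present in every library. Of markers of dorsal root ganglion neurons, Scn10a and Scn11a did not exceed 0.0429 FPKM, and Avil did not exceed 0.171. Markers of some other tissues were uneven between libraries: the lung genes Scgb1a1 and Sftpc ran from 0 to 118 and from 0 to 23.2 FPKM. Sham library 3 and day 7 library 3 stood apart: their correlation across genes with the other 10 was 0.925 to 0.942, against 0.979 to 0.988 among those 10 and 0.983 with each other. The remaining libraries were almost the same within a group. Over 54 genes that reached 200 FPKM in every library, the ratio of 2 of them spread by 1.2 to 1.67% within a group and by 4.26 to 8.57% between groups.

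Most peaks lay in 3' UTRs in every list. Their share was 55.9% in sham (95% exact binomial interval 55.3 to 56.6%, counting error only), 61.2% on day 3, 58.5% on day 7 and 61.7% on day 14. The sham and day 7 lists, whose groups each hold an input library that stood apart, had the lower numbers and shares, and the day 3 and day 14 lists the higher ones; the part of those libraries in this was not tested. The order of the numbers depended on the thresholds. At stricter thresholds, a fold of 4 or more and a p no larger than 1e-10, sham had the most 3' UTR peaks, 8039, followed by day 14 with 7950, day 3 with 7745 and day 7 with 7604.

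Peaks in sham were higher and shorter. The median fold enrichment of 3' UTR peaks was 6.29 in sham, 5.19 on day 3, 5.80 on day 7 and 5.37 on day 14, and the median exonic length was 448, 540, 510 and 540 bases. The share that spanned more than 1 exon block was 24.5% in sham and 31.6 to 35.2% in the injured lists. The share that ran to the annotated end of the gene was 22.7% in sham, 35.6% on day 3, 26.2% on day 7 and 34.1% on day 14. In this last share day 7 lay nearer to sham than to days 3 and 14. In median fold, median length and exon blocks day 7 lay between sham and days 3 and 14. The same order of folds held for peaks in 5' UTRs (medians 7.55, 5.12, 5.97 and 5.16 from sham to day 14) and in other exons (6.00, 5.25, 5.54 and 5.34), so it was shared with the rest of the lists.

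**Figure D1:**
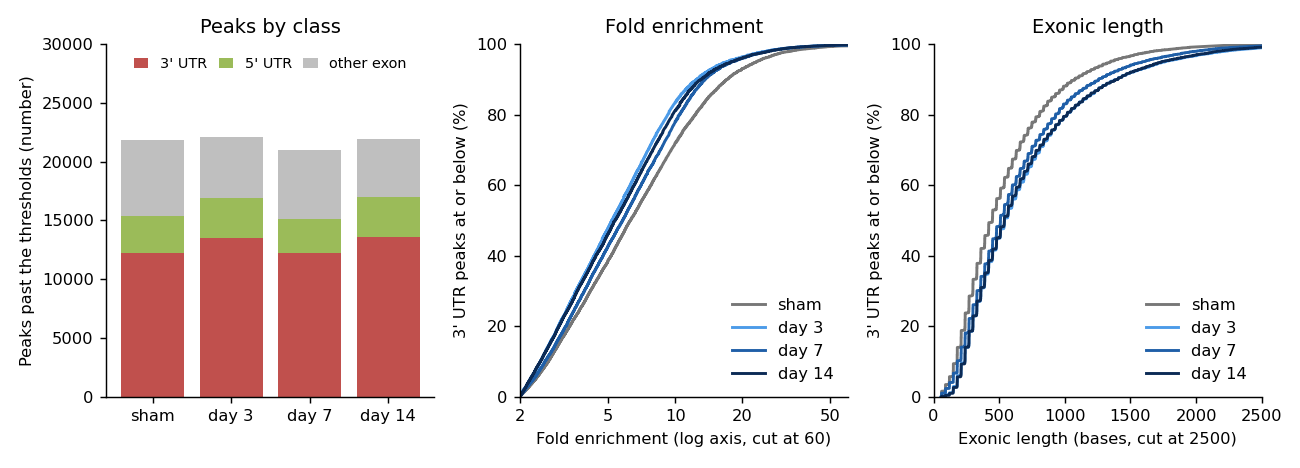
Left, the number of peaks past the thresholds in each list, stacked by class; middle and right, the percentage of 3' UTR peaks at or below each fold enrichment (log axis) and each exonic length in bases, 1 line per list. 3' UTR peaks are the largest class in all 4 lists, and the sham line lies toward higher folds and shorter peaks.

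3' UTR peaks had far smaller p-values than the other classes. Their median log10 p was -82.7 in sham, -58 on day 3, -72.7 on day 7 and -61 on day 14. Peaks in 5' UTRs had medians of -29.5, -17.1, -23.1 and -20.7, and peaks in other exons -25.9, -14.7, -19.4 and -16.8. Where RefSeq gives a gene class, 99.4 to 99.5% of 3' UTR peaks were in protein-coding genes, against 66.6 to 75.6% of peaks in other exons. Most genes had a single 3' UTR peak, 6532 of 8981 in sham, and 588 had 3 or more. Stard9, a kinesin, had the most, with 11 in sham, 9 on day 3, 11 on day 7 and 9 on day 14. Banp, Map3k13, Ankrd11 and Zfp704 followed with 6 each in sham and 3 to 5 in the injured lists.

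The strongest peaks by fold were those of Dhx9, an RNA helicase, on chromosome 1 from 153455937 to 153458053 on the minus strand. Its fold enrichment was 438 in sham, 877 on day 3, 1100 on day 7 and 984 on day 14. Fam171a2 (chromosome 11, 102436981 to 102438480) followed with 228, 725, 704 and 485. Ntm, an adhesion molecule of neurons, had 180, 417, 164 and 153, and the potassium channel Kcnk9 had 108, 166, 109 and 222. Fbxl19, Nyap1, Fgd3, Creg2, Fam98b and Fkbp2 completed the 10 highest among peaks found in all 4 lists. All of the 10 but Ntm and Fgd3 were higher in every injured list than in sham, against the trend of the lists. They were ranked by the geometric mean over the 4 lists, most of them injured, which favours such peaks. All 10 genes had a mean of 5.43 to 47.2 FPKM over the 12 inputs.

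Ranking by p gave other genes, mostly abundant ones. Ndn, a growth-restraining protein of neurons, had folds of 48.2, 14.3, 23.7 and 14.7, and its RNA was low in the sham and day 7 libraries that stood apart, at 24.2 and 23.9 FPKM against 57.9 to 62.2 in the others. The neurofilament gene Nefh had 3.09, 3.56, 3.47 and 3.58, the myelin gene Mobp 3.72, 3.07, 3.51 and 3.02, and Nap1l5 8.88, 6.45, 7.17 and 6.86.

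Whether a gene carried a 3' UTR peak went with its RNA level. Of 13479 genes with a mean of at least 1 FPKM, 56.8% carried one in sham, 65% on day 3, 58.4% on day 7 and 65.6% on day 14; 7069 genes (52.4%) carried one in all 4 lists and 4093 (30.4%) in none. Of the 11889 of these genes that are protein-coding in RefSeq, 63.6% carried one in sham, 72.8% on day 3, 65.5% on day 7 and 73.5% on day 14. In sham the share of all genes was 0.945% below 0.1 FPKM and was highest at 5 to 10 FPKM (64.6%). It was lower above, at 40.3% from 100 FPKM. Median fold enrichment was lower at each higher level: in sham it was 10.3 below 0.5 FPKM, 5.93 at 5 to 10 FPKM and 3.66 from 100 FPKM. On day 3 the corresponding folds were 8.99, 4.86 and 3.05. Above 50 FPKM the gap between lists was wide, with 41.7% of genes carrying a peak in sham and 43% on day 7, against 55.8% on day 3 and 54.2% on day 14 at 50 to 100 FPKM. These are descriptions over genes, which are not replicates.

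**Figure D2:**
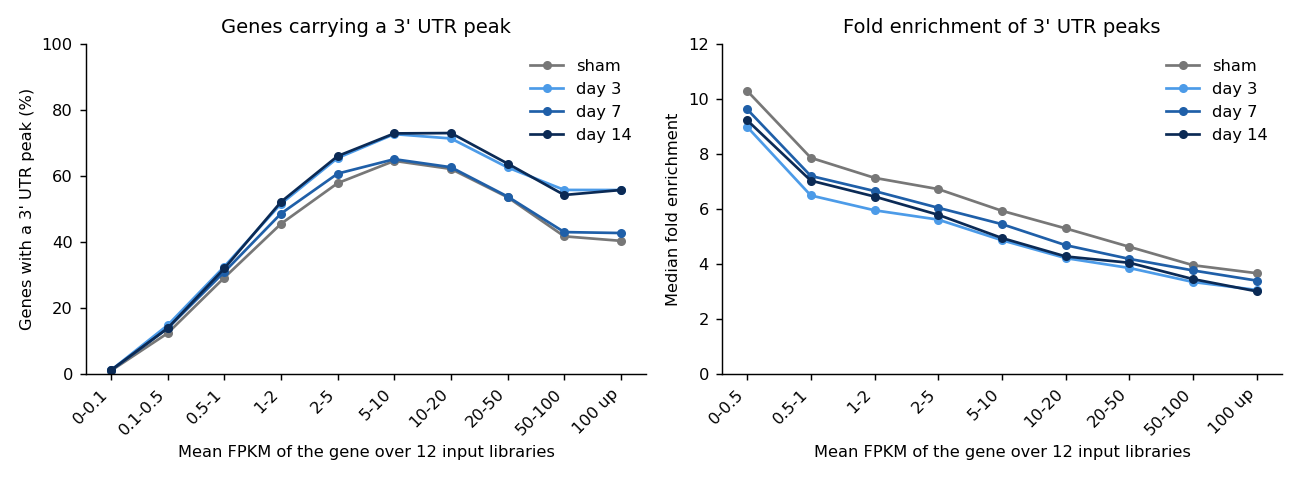
Left, the percentage of genes that carry a 3' UTR peak, and right, the median fold enrichment of 3' UTR peaks, by the gene's mean FPKM over the 12 inputs, 1 line per list. Genes at 5 to 20 FPKM carry peaks most often in each list, and the median fold is lower in each higher bin.

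Gene lists differed widely against that background. Ionotropic glutamate receptors, the fast excitatory receptors of the dorsal horn, carried 3' UTR peaks in 14 of 15 expressed members in sham, 15 on day 3, 14 on day 7 and 15 on day 14. Potassium channels carried them in 24, 26, 26 and 26 of 26, voltage-gated sodium channels in 7, 8, 7 and 8 of 8, and calcium channels in 13, 15, 14 and 15 of 15. Hox genes, which set segment identity, carried them in 29, 30, 31 and 30 of 31, and immediate early genes, switched on by activity, in 10, 11, 10 and 11 of 11. For a gene with several peaks in a list, the fold given here is the highest of them, so it can belong to different sites in different lists. Among the glutamate receptors the kainate subunit Grik2 had folds of 29.0, 21.1 and 23.5 from sham to day 7, at log10 p of only -7.94, -6.08 and -6.07, and on day 14 a single peak of 11.9 with a log10 p of -201. The NMDA subunit Grin2a had 19.2, 20.2, 92.1 and 16.8. The AMPA subunit Gria1, with 4 peaks in sham, had a highest fold of 8.69, 7.42, 6.87 and 6.55. Grin1, the obligatory NMDA subunit and the most abundant of the list at 32.0 FPKM, was the only member without a peak in sham and on day 7, and had 2.80 on day 3 and 2.48 on day 14.

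Immediate early genes included some of the higher folds. Jun, a transcription factor of injured neurons, had 32.2, 20.4, 33.0 and 44.6, and Jund 26.9, 13.7, 17.8 and 13.7. Egr1 had 7.58, 7.15, 8.59 and 6.74. Fos had no 3' UTR peak in sham or on day 7, and 4.15 and 4.10 on days 3 and 14. Axon guidance genes (29, 31, 29 and 30 of 35) and zinc finger Zfp genes (208, 235, 224 and 236 of 278) also stood above the share of all genes. The difference of any list from all genes was not tested.

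Ribosomal protein, splicing factor, respiratory chain and microglial genes stood below the share of all genes, and myelin genes above it. Ribosomal protein genes carried a 3' UTR peak in 18, 20, 18 and 22 of 85 expressed members, and genes of splicing factors and hnRNPs in 8, 12, 10 and 13 of 25. Respiratory chain genes carried one in 15 of 40 in sham and 13 on day 7, but 24 on day 3 and 25 on day 14. On days 3 and 14 this was 60 and 62.5%, near the 65 and 65.6% of all genes. The median level of respiratory chain genes was 63.5 FPKM, in the range where the lists differed most. Microglial genes carried one in 8, 9, 9 and 10 of 18: Cx3cr1, the fractalkine receptor, had folds of 24.4, 12.9, 13 and 26, while the abundant Ctss had none in any list. Myelin genes carried one in 12, 13, 11 and 13 of 16, at low folds; Mbp had 5.66, 3.34, 4.07 and 3.37.

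**Figure D3:**
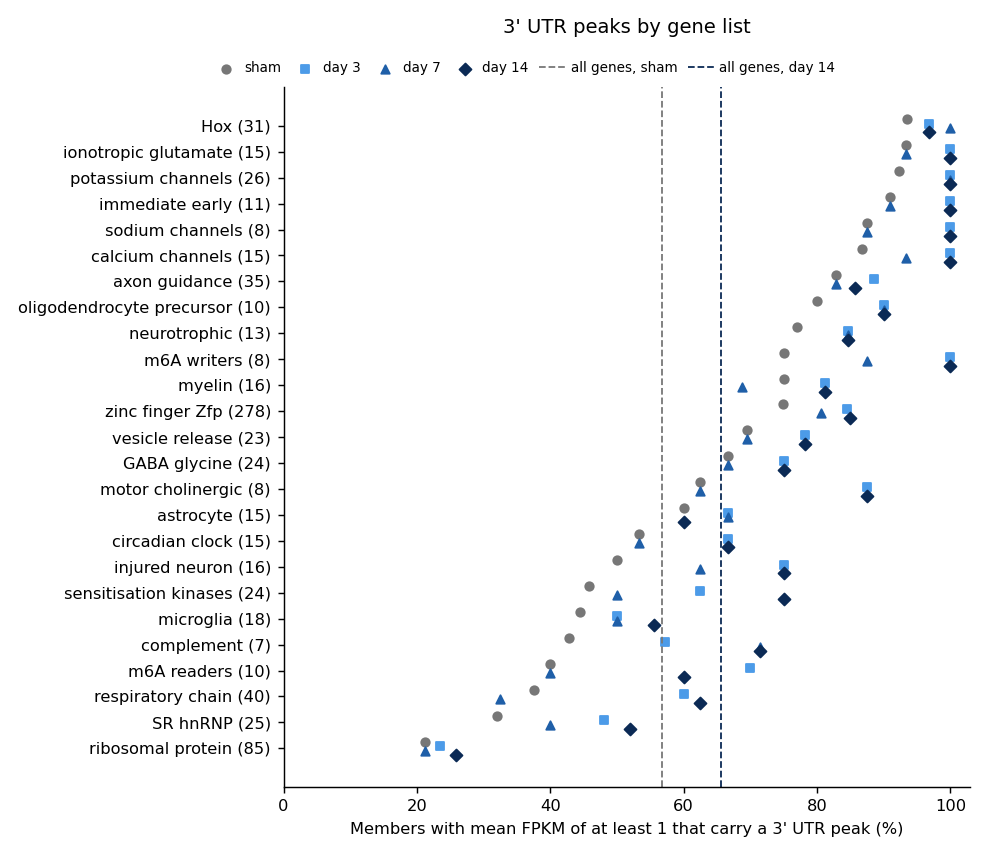
The percentage of expressed members of each list (number in brackets) that carry a 3' UTR peak in each of the 4 peak lists; dashed lines give all genes with a mean of at least 1 FPKM, 56.8% in sham and 65.6% on day 14. Channel, glutamate receptor, Hox and immediate early genes lie at the right, and ribosomal protein, splicing factor and respiratory chain genes at the left.

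Gene Ontology terms in the authors' gene table again had channels high and ribosomal genes low. Among terms with at least 100 expressed genes, the 5 highest shares in sham were those of G protein-coupled receptor activity (111 of 131 genes, 84.7%), ion channel activity (90 of 108, 83.3%), 2 transcription factor terms (82.6 and 80.1%) and postsynaptic membrane (134 of 170, 78.8%). The lowest were structural constituent of ribosome (67 of 159, 42.1%) and myelin sheath (78 of 181, 43.1%). On day 14 the receptor, channel, postsynaptic, ribosome and myelin terms were at 89.3, 90.7, 82.4, 48.4 and 60.8%. The myelin sheath term was near the bottom, although the shorter list of myelin genes stood above all genes. The terms were picked by this rank, so they are given as a description.

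The m6A machinery itself carried 3' UTR peaks. Mettl3, the catalytic subunit, had one on all injured days, at folds of 3.89, 2.46 and 3.59 (on day 3, chromosome 14, 52294871 to 52295523, minus strand). The sham list had a row at that place that missed both thresholds, with a fold of 1.67 and a log10 p of -3.43. Mettl14, its partner, had a 3' UTR peak of 2.80, 2.81 and 2.71 on the injured days (on day 7, chromosome 3, 123369254 to 123369553) and no row in sham. Their RNA did not pass the test: Mettl3 was at 2.72 ± 0.338 FPKM in sham (SD, n = 3) and 2.85 to 3.09 on the injured days, and Mettl14 was at 3.30 ± 0.706 in sham and 2.69 to 3.27 on the injured days. The Mettl14 peaks and the day 7 Mettl3 peak lie near the fold threshold of 2. Of the other writers, Rbm15b, an RNA-binding subunit, had the highest folds. They were 44.0 in sham and 18.5 on day 3 (log10 p of -600 and -413), and 34.8 and 33.4 on days 7 and 14 at log10 p of only -10.6 and -9.13, so that these are not values of a single site. Wtap, Virma, Cbll1 and Zc3h13 had peaks in all 4 lists.

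Fto and Alkbh5, the demethylases, had no 3' UTR peak past the thresholds in any list, at a mean of 14.8 and 8.92 FPKM. Both had peaks outside the 3' UTR class. Fto had them in every list, the strongest in sham with a fold of 4.25 and a log10 p of -675. Alkbh5 had them in sham only, with folds of 21.5 and 5.32. Readers carried a 3' UTR peak in 4, 7, 4 and 6 of 10 expressed members. Those shares are 40, 70, 40 and 60%, against 56.8, 65, 58.4 and 65.6% of all genes with a mean of at least 1 FPKM. Of the protein-coding genes among these, 63.6, 72.8, 65.5 and 73.5% carried one, so the readers were below them in every list. Of the readers, the YTH proteins Ythdf3 (14.2, 8.85, 8.84 and 8.73), Ythdc1 (11.3, 9.88, 9.69 and 7.88) and Ythdf2 (9.58, 7.55, 8.86 and 7.70) had peaks in all 4 lists, and sham had the highest fold for each. Ythdf1 had a weaker one, 2.37 in sham, 3.96 on day 3 and 3.12 on day 14, and none on day 7. Other readers had none in sham: Hnrnpa2b1 had 5.71, 4.66 and 6.26 on the injured days, Elavl1 2.07 and 2.05 on days 3 and 14, and Prrc2a 4.92 on day 3. Ythdf3 RNA was at 14.0 FPKM in the sham library that stood apart, at 8.38 and 8.58 in the other sham libraries, and at 8.11 to 9.15 on days 3 and 14.

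Each injured list was next set against sham. A peak was counted as shared where the exonic blocks of the peak and of a peak in the other list, of any annotation, overlapped by at least 50% of each on the same strand. Of sham 3' UTR peaks, 70.4% had such a partner on day 3, 76.5% on day 7 and 71.2% on day 14, so 29.6, 23.5 and 28.8% had none, against 38.6, 31.5 and 37.3% of all sham peaks. Of the 3' UTR peaks of day 3, 64.7% had a partner in sham, 76.7% of those of day 7 and 65.3% of those of day 14; those without were 35.3, 23.3 and 34.7%, against 39.5, 28.8 and 37.8% of all peaks of those lists. 3' UTR peaks were thus shared more often than all peaks, which were mostly 3' UTR peaks themselves. Days 3 and 14 shared 87.9% of the 3' UTR peaks of either list; those without a partner were 12.1% of each, against 17.5 and 17% of all peaks. Without a partner in day 7 were 24.4% of day 3 peaks and 23.7% of day 14 peaks, against 30 and 28.4% of all peaks, and of day 7 peaks 17.6% had none on day 3 and 16.8% none on day 14, against 26.1 and 24.9%.

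Most sham peaks without a partner still shared at least 1 base with a peak of the other list. Set against day 3, 2611 sham 3' UTR peaks (21.4%, against 26.4% of all sham peaks) touched a peak of the other list without overlapping it by 50% each way, 806 (6.61%, against 9.44%) touched only rows outside the thresholds and 199 (1.63%, against 2.8% of all sham peaks) had no base in common with any row. Without a common base were 506 (4.15%, against 6.34%) on day 7 and 197 (1.61%, against 2.65%) on day 14. The reverse was more frequent: 1965 day 3 peaks (14.5%, against 15.7% of all day 3 peaks), 975 day 7 peaks (7.95%, against 9.42%) and 2019 day 14 peaks (14.9%, against 15.5%) had no base in common with any sham row. Those peaks were weak and short, with a median fold of 2.87, 2.98 and 2.84 and a median length of 241, 210 and 241 bases. Between days 3 and 14, 162 day 3 peaks (1.20%) and 210 day 14 peaks (1.55%) had no common base, against 1.81% of all peaks in each case. Against day 7 the counts were 1264 on day 3 (9.34%) and 1310 on day 14 (9.67%), against 10.9% of all peaks in each case, while 104 and 95 day 7 peaks had none on days 3 and 14 (0.848 and 0.775%, against 1.64 and 1.42%). Of the sham 3' UTR peaks, 7618 (62.4%, in 6549 genes) had a partner in all 3 injured lists, at a median fold of 7.67 in sham, and 2069 (17%) in none, at 3.76. Of all sham peaks, 51.7% had a partner in all 3 and 22.8% in none.

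**Figure D4:**
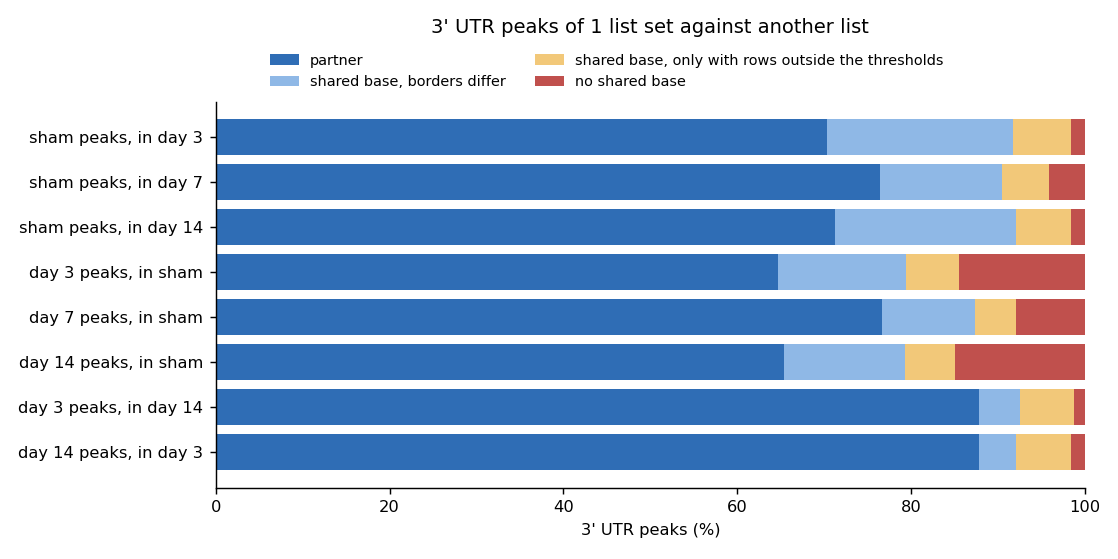
Each bar divides the 3' UTR peaks of 1 list (%) by what the other list holds at the same place. These are a partner with at least 50% overlap each way, a peak sharing fewer bases, a row outside the thresholds, or no shared base. Sham peaks seldom lack a common base with an injured list, while 14.5 and 14.9% of day 3 and day 14 peaks lack one with sham.

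Fold enrichment of the peaks shared by all 4 lists was a little lower in the injured lists. The median log2 ratio to sham was -0.29 on day 3, -0.20 on day 7 and -0.23 on day 14, and 70.8, 66.4 and 66.5% of the 7618 peaks were lower than in sham. The same peaks were longer than in sham in 75.9, 57.9 and 76.8% of cases. For 79.1% of them the highest and lowest of the 4 folds were within a factor of 2. For peaks shared by 2 injured lists the median log2 ratio was 0.08 for day 7 over day 3 (n = 10235), 0.06 for day 14 over day 3 (n = 11892) and -0.01 for day 14 over day 7 (n = 10208). Ratios to sham share the sham list, and peaks of other classes were lower too: for peaks shared with sham the day 3 median was -0.28 in 3' UTRs, -0.37 in 5' UTRs and -0.33 in other exons.

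Some shared peaks went far beyond that. Arxes2 (chromosome X, 135994236 to 135994737) had a fold of 6.83 in sham and 92.9 on day 3. Fkbp2, a prolyl isomerase of the endoplasmic reticulum, had 61.2 in sham, 415 on day 3, 74.8 on day 7 and 90.5 on day 14. Lrfn3, a synaptic adhesion protein, had 7.36 in sham and 64.8 on day 7. Zxdb had 30.6 in sham and 259 on day 14, and Diras2, a small GTPase of brain, 4.16 and 33.4. For Arxes2, Lrfn3, Zxdb and Diras2 only the day on which they were picked is given. In the other direction, Fancf, a DNA repair protein, had 197 in sham, 11.3 on day 3 and 23.1 on day 14. Zfp112 had 111 in sham and 13.7, 11.1 and 5.92 on the 3 injured days. Nanp, which makes free sialic acid, had the highest fold of any sham 3' UTR peak, 1210 (chromosome 2, 151029982 to 151030904), and 22.5 in its day 7 partner; day 14 had no row in common with it. Its RNA was 2.05 to 2.56 FPKM in sham, 1.91 to 2.73 on day 3, 2.09 to 3.16 on day 7 and 2.05 to 4.54 on day 14, so the groups overlapped.

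Overlapping genes recur among these. Abi3, Zfp652 and Phospho1 list peaks on almost the same stretch of chromosome 11 (95830791 to 95832165 for Abi3), with folds of 4.10, 3.94 and 3.96 in sham and 42.5, 38.8 and 38.8 on day 3, although Abi3 lies on the minus strand and the other 2 on the plus strand. The Cdan1 peak, 83.6 in sham and 10.3, 7.89 and 6.78 on the injured days, lies across a Stard9 peak on the other strand, at 72.8 in sham. Over all sham 3' UTR peaks, 540 (4.43%) were covered for at least 50% by a peak of another gene on the other strand, and in 458 of 548 such pairs (83.6%) the 2 folds were within a factor of 1.5. Which gene carried the signal at such places cannot be told apart.

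Among the strongest 3' UTR peaks with no base in common with sham, Gapdh, a glycolytic enzyme widely used as a reference gene, came first. Its peak (day 14, chromosome 6, 125161805 to 125162164, minus strand) had folds of 15.1 on day 3, 13.5 on day 7 and 221 on day 14. In sham Gapdh had only a row outside the 3' UTR and outside the thresholds. Its RNA was 20.1 to 21.9 FPKM in sham, 23.2 to 36.9 on day 3, 21.5 to 23.7 on day 7 and 21.5 to 23.7 on day 14. Gapdh has many processed copies in the mouse genome, so its reads are uncertain. Nkain1, a partner of the sodium pump, had 65.7 on day 3 and 130 on day 14 at its place. Its RNA was at 10.2 and 13 FPKM in the sham and day 7 libraries that stood apart and at 19.3 to 23.1 in the others; their part in the peak was not tested.

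Several of the others were liver genes. The 3' UTR peaks of the major urinary proteins Mup3 (84.5 on day 7 and 43.9 on day 14), Mup20 (42.3 and 40.4) and Mup7 (153 on day 14) shared no base with sham, nor did those of the serpin Serpina3k (43.2 on day 7 and 51.9 on day 14) and of haptoglobin, Hp (49.2 on day 14). Yet all 3 Mup genes were at 0 FPKM in each of the 6 input libraries of days 7 and 14, and Mup7 was at 7.22, 8.37 and 0 in sham and 0, 40.6 and 0 on day 3. Of the liver markers, Alb was at 29.5, 4.99 and 0.0526 FPKM in sham, 0.0594, 85.4 and 3.09 on day 3, 1.22, 4.3 and 0.117 on day 7 and 0, 3.18 and 0 on day 14, with no row in any list. Apoa1, at 0 to 19.4 FPKM, had 3' UTR peaks of 3.97 on day 3 and 12.8 on day 14. Mup genes are near-identical copies, so their reads are uncertain too, and the part of liver RNA in these peaks was not tested. In all, 169 sham 3' UTR peaks (1.39%) and 164 to 168 in each injured list (1.21 to 1.37%) lay in genes with a mean below 0.1 FPKM in the inputs of their own group, against 2.85% of all peaks in sham and 2.54 to 2.72% in the injured lists.

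Few genes with a 3' UTR peak changed in RNA by limma at a Benjamini-Hochberg adjusted p below 0.05. Of those with a 3' UTR peak in sham or the injured list, 8 of 9781 passed on day 3 (7 higher, 1 lower), 8 of 8992 on day 7 (all higher) and 6 of 9811 on day 14 (all higher). Those shares are 0.0818, 0.0890 and 0.0612%, against 0.0578, 0.103 and 0.0514% of all 15564 genes tested; for lower genes on day 3 the background was 0.00643%. At an unadjusted p below 0.05 there were 533, 164 and 420 (5.45, 1.82 and 4.28%), against 6.24, 2.53 and 4.92% of all genes. With the library number as a block the day 7 count was 5. Without both libraries that stood apart the counts were 712, 85 and 499 (7.28, 0.945 and 5.09%, against 7.07, 1.11 and 4.71% of all genes). The directions were then mixed, with 333 higher and 379 lower on day 3, 48 and 37 on day 7 and 245 and 254 on day 14. With near-identical libraries averaged into 6 samples no call of a gene with a 3' UTR peak was left. Days 3 and 14 then had 1 sample each, so that fit could hardly pass any gene. Leaving out 1 library at a time gave 2 (without day 3 library 2) to 27 (without day 7 library 3) on day 3, 3 to 9 on day 7 and 3 to 11 (without day 7 library 3) on day 14.

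Genes of injured neurons led. Atf3, which neurons switch on after axotomy, was at 0.353, 0.329 and 0.585 FPKM in sham, 6.49, 6.29 and 6.04 on day 3, 8.02, 7.75 and 10.5 on day 7 and 5.97, 5.32 and 6.20 on day 14, with no overlap between sham and any injured group. It rose by 2.89 ± 0.13, 3.33 ± 0.13 and 2.79 ± 0.13 on the log2(FPKM + 0.5) scale (SE; limma adjusted p = 1.03e-05, 2.49e-06 and 1.47e-05). Its 3' UTR fold was instead highest in sham, at 34.8 over 718 bases (log10 p of -25). On the injured days it was 10.9, 9.73 and 10 over 1436 bases, with log10 p of -257, -419 and -244. The injured peak (chromosome 1, 191170296 to 191172426, minus strand) began at the annotated end of the gene.

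Sprr1a, a protein of regrowing axons, was at 0.416, 0.158 and 1.57 FPKM in sham and 14.8 to 38.4 on the injured days, with no overlap (log2 3.87 ± 0.32, 4.96 ± 0.32 and 5.07 ± 0.32, SE; limma adjusted p = 0.00178, 0.000106 and 8.48e-05). It had no row of any kind in sham and a 3' UTR peak of 6.17, 6.03 and 4.92 on the injured days (day 7, chromosome 3, 92483952 to 92484369). S100a11, a calcium-binding protein, was at 4.40 to 4.77 FPKM in sham and 7.83 to 13 when injured (log2 0.78 ± 0.08, 1.35 ± 0.08 and 1.13 ± 0.08, SE; limma adjusted p = 0.00586, 4.08e-05 and 0.000116). It too had no row in sham, and folds of 3.17, 2.2 and 4.16 later. Atf3 and Sprr1a passed on all 3 days, and S100a11 on days 7 and 14, with any 1 library left out; S100a11 on day 3 did not without day 3 library 2 or 3 (highest adjusted p 0.0555). In limma fits of only the 2 groups compared, adjusted p was 0.165 on day 3 for Sprr1a and S100a11, and 0.0671 and 0.0648 on day 7, so these calls were lost, while the Atf3 calls and those of day 14 held. The calls of the other 9 genes were lost in those fits (adjusted p 0.0961 to 1) and in the fit with 6 averaged samples. All of these calls were lost with 6 averaged samples. That fit holds 1 sample each for days 3 and 14 and could hardly pass any gene, so it cannot decide these calls.

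Tubb6, a beta-tubulin, passed on days 7 and 14 (1.06, 0.787 and 0.646 FPKM in sham, 2.08 to 3.77 on those days). Its 3' UTR fold was 8.68 in sham and 3.41, 3.28 and 2.48 on the injured days. Gpr151, an orphan receptor, passed on the same days (0.24, 0.142 and 0.0993 FPKM in sham, 0.773 to 1.27 on those days). Its folds were 7.03, 5.29 and 6.11 on the injured days, and its sham row had a fold of 18.2 but missed the p threshold at a log10 p of -4.72. For Tubb6 the call was lost without any of 8 libraries on either day, with a highest adjusted p of 0.124 on day 7 and 0.184 on day 14. For Gpr151 it was lost without any of 4 libraries on day 7 and 7 on day 14, with a highest adjusted p of 0.114 and 0.177, in both cases without sham library 2.

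Of the myeloid genes, Ly86, which binds the receptor Cd180, was at 2.06, 2.28 and 1.46 FPKM in sham and 5.28, 5.68 and 4.73 on day 3 (log2 1.25 ± 0.13, SE; limma adjusted p = 0.00708; lost without day 3 library 1 or 2, highest 0.0565). Here both RNA and 3' UTR fold were higher after injury, with 4.85 in sham and 8.35, 9.68 and 7.37 later. The complement gene C1qa passed on day 7, from 20.6 to 25.0 FPKM in sham to 35.7 to 39.6 (adjusted p = 0.0108; 0.0512 with the block; lost without sham library 2 or day 7 library 1 or 2, highest 0.0702), and its fold was 17.2 in sham and 5.05, 5.70 and 5.61 later. Bin2 and Tmem119 passed on day 3 and Cd180 on day 7. Bin2 had no 3' UTR peak in sham or on day 7, and 4.42 on day 3 and 2.58 on day 14. Tmem119, a microglial marker, had 13.8, 8.99, 10.1 and 7.81, and Cd180 10.1, 9.04, 8.89 and 5.25. These 3 calls and that of Ly86 on day 7 were lost without most single libraries, with a highest limma adjusted p of 0.232, 0.232, 0.223 and 0.195. With the block Bin2 was at 0.121, Tmem119 at 0.103, Cd180 at 0.194 and Ly86 on day 7 at 0.104, so these calls were lost too. In bulk tissue, more cells of a type and more RNA per cell cannot be told apart.

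Dbp, a clock-controlled transcription factor, passed on days 3 and 14, from 5.28 to 6.45 FPKM in sham to 11.5 to 12.8 on both days. Its 3' UTR fold was 3.06 in sham and 5.55, 4.70 and 4.26 later, over 330 bases in sham and 510 after. The call was lost without sham library 2, any day 3 library (on day 3) or day 14 library 2 or 3 (on day 14). The highest limma adjusted p was 0.0976 on day 3 and 0.0921 on day 14. With the block it was 0.0572 on day 3, where the call was lost, and 0.0404 on day 14. Slc5a7, the choline transporter of cholinergic neurons, fell on day 3, from 13.9 to 15.8 FPKM to 10.1 to 10.9 (adjusted p = 0.0355; lost without any of 10 libraries, highest 0.259, and 0.107 with the block); its folds were 4.41, 4.37, 5.74 and 5.52. Of all these genes with a peak in sham, Atf3, Tubb6, C1qa, Tmem119 and Cd180 had a lower fold on every injured day, Ly86 and Dbp a higher one, and Slc5a7 both. These are each gene's highest fold in a list, not values of a matched site. Of 3' UTR peaks shared by all 4 lists, 70.8, 66.4 and 66.5% were lower than in sham on days 3, 7 and 14. A difference of these genes from that background was not tested. Genes that passed without a 3' UTR peak included Anxa10, Ctla2a and Ccl7, whose 3' UTR rows missed the p threshold, and the red cell genes Hba-a1, Hba-a2, Hbb-bs, Hbb-bt and Alas2, with no row in any list.

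**Figure D5:**
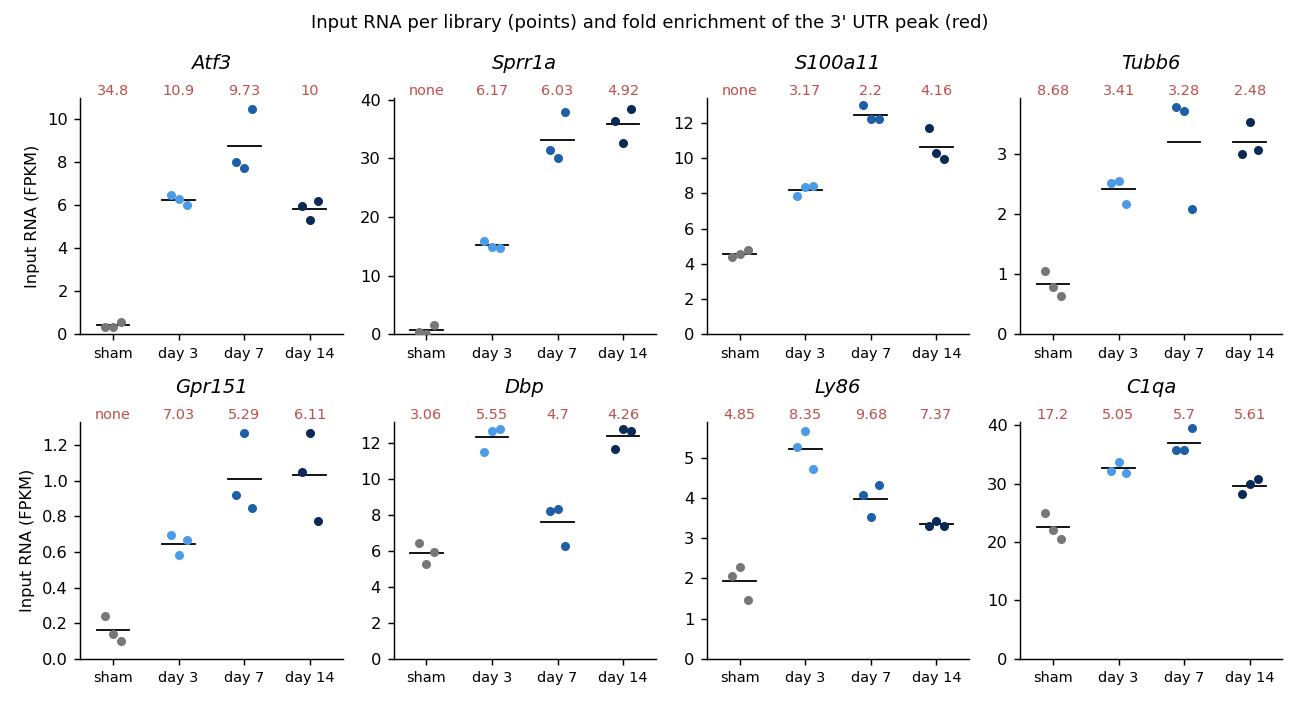
Input RNA in FPKM per library (points, 3 per group, with the mean as a line) for 8 of the genes that passed, and in red the fold enrichment of the 3' UTR peak in each list, or "none" where no peak passed the thresholds. Sprr1a, S100a11 and Gpr151 have no peak in sham, where their RNA is lowest, and the Atf3 fold is highest in sham, at 34.8.

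Median RNA differences were near 0 whatever the status of the peak. Genes whose day 3 peaks shared no base with sham had a median log2 RNA difference from sham of 0.05 on day 3 (n = 1798), against 0.02 for genes with shared peaks (n = 6836) and 0.03 for all tested genes. Without the libraries that stood apart these were 0.01, 0.01 and 0.02. On day 14 they were 0.06, 0.03 and 0.03, and on day 7 all 3 were within 0.01 of 0. Genes of sham peaks with no common base in the injured list had medians of 0.01 on day 3 and 0.00 on days 7 and 14.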

How the data were processed

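RNA from 12 input and 12 m6A-enriched spinal cord libraries was measured. Per the submitters' processing notes, the authors used HISAT2, StringTie, ChIPseeker and edgeR; the sources used here give no versions, peak caller or build. The peak lists, per the file headers, hold fold enrichment as a ratio and a score, lg.p, which is the log10 of p, with 1 deposited list per group. Of 26215 gene symbols, 99.92% overlapped the same gene in GRCm38.p6. The deposited gene table holds FPKM, so depth is unknown and the number of libraries limits precision. A peak's gene is that of the name column: every peak with a gene in the table lay inside it, whereas in 31.3 to 31.7% of 3' UTR peaks the geneName column names another gene. File starts count from 0; starts here count from 1.

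limma 3.58.1 in R 4.3.3 (eBayes with trend) was fitted to log2(FPKM + 0.5) for 15564 genes with a mean of at least 0.5 FPKM, as 4 group means, with Benjamini-Hochberg adjustment. Overlaps used Python 3.11.15. Both steps were tested on simulated data. The simulated libraries varied independently of each other, so the limma test did not cover libraries that are near-identical within a group. Same-numbered sham and day 7 libraries deviated together (r 0.459, 0.534 and 0.793, the highest for the libraries that stood apart). The library number was used as a block in an alternative fit only, and the main fit held no pairing. Libraries 1 and 2 correlated as well across numbers (0.619 and 0.492), and the pairing comes from the data, since the labels state none. In the other 2 comparisons r was -0.105 to 0.089, and -0.025 to 0.047.

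The 3' UTR peaks and the gene lists were chosen with earlier results of these data known. Genes named are the 10 highest by fold and 5 smallest by p among peaks in all 4 lists, per day the 5 strongest peaks without a partner and the 5 largest rises and falls of shared peaks, the 5 genes with most peaks, genes that passed in limma, list members and markers. Some items these rules name are not reported here. The overlapping genes, liver genes as a group and pairs of strands were looked at after values were seen. No sequence is printed and no motif was searched, since no genome sequence was used here.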

Additional observations from a re-analysis of the deposited data

How the results depend on the processing

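At a fold of 4 or more and a p no larger than 1e-10, 3' UTR peaks numbered 8039 in sham, 7745 on day 3, 7604 on day 7 and 7950 on day 14, 59.8, 67.4, 64.2 and 67.3% of their lists; with all rows the shares were 48.4, 50.7, 49.3 and 51.5%, and day 3 had 20386. The sharing of peaks depended on its definition. In the order sham peaks in day 3, 7 and 14, then day 3, 7 and 14 peaks in sham, at least 1 shared base gave 91.8, 90.5, 92.1, 79.4, 87.4 and 79.3%, and a reciprocal overlap of 80% gave 38.2, 48.5, 38.1, 34.5, 48.3 and 34.3%. A partner among all rows gave 74.9, 80.3, 75.7, 66.9, 79.2 and 67.6%. Stricter thresholds on both sides gave 72.1% of sham peaks in day 14, and 74.5, 82.2 and 74.5% of day 3, 7 and 14 peaks in sham. Equal numbers of the strongest peaks gave 69.0 and 69.3% of day 3 and day 14 peaks in sham. After seeing the data, overlap of genomic spans (61.7, 68.5, 62.3, 57.2, 69.0 and 57.5%) and 1 base shared with any row (98.4, 95.9, 98.4, 85.5, 92.0 and 85.1%) were added. The median log2 ratio of fold to sham was -0.35, -0.23 and -0.29 with a reciprocal overlap of 80%, against -0.28, -0.19 and -0.22 for peaks shared with sham.

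Of genes with a 3' UTR peak, the count that passed in limma was 8 on day 3, 8 on day 7 and 6 on day 14. The replicate block, which pairs libraries by number, gave 4 on day 3, 5 on day 7 and 6 on day 14. Fits of only the 2 groups compared gave 1, 1 and 3. On day 7, no filter gave 5 and a mean FPKM of at least 5 gave 4. Leaving out 1 library at a time gave 2 to 27 on day 3, 3 to 9 on day 7 and 3 to 11 on day 14; without day 7 library 3 and sham library 3 the counts were 712, 85 and 499, or 7.28, 0.945 and 5.09%, against 7.07, 1.11 and 4.71% of all genes. Added after seeing the data, averaging near-identical libraries into 6 samples gave 0, 0 and 0, and taking the gene from the geneName column gave 5 on day 3. Over 22 calls of named genes and 476 alternative values, 325 kept the call, 151 lost it and 0 changed sign. All 22 calls held without the libraries that stood apart, and 0 of the 22 held with 6 averaged samples. The first of these fits is left with near-identical libraries, and its calls over all genes on day 3 were 1101, against 9 in the main fit. It is therefore a weak check of those calls. The fit with 6 averaged samples is a weak check too, since days 3 and 14 have 1 sample each in it and hardly any gene could pass. The geneName column would also lower the share of expressed genes with a 3' UTR peak in sham from 56.8 to 45.4%. With 1 peak list per group, no difference between lists has a replicate check, and the unknown depth limits what an absent peak means.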
